A study of Mus musculus with 50 samples.

Results

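Lymph nodes that drain the duodenum, jejunum and ileum were compared with the node that drains the colon, in mice raised on a vitamin A deficient diet. Of the 50 libraries of the series, 20 belong to this comparison: 15 from small intestinal nodes, 5 for each of the 3 segments, and 5 from colonic nodes. They were taken by the diet and node on the library labels. The contrast is the mean of the 3 small intestinal nodes minus the colonic node, and genes that differed from the colonic node in each of the 3 nodes were favoured. All 20 libraries came from female C57BL/6J offspring taken on postnatal day 56, whose dams had eaten the deficient diet from 3 weeks before breeding, and came from the second and the third litters. The 20 matching libraries on the sufficient diet, with the same ingredients plus vitamin A (20 IU/g), came from females (libraries 1 and 2 of each node) and males (libraries 3 to 5). The diet goes with dam and litter, and the labels do not tie nodes to individual mice, which leaves p-values to measure library-to-library spread, possibly technical.

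Each segment of the intestine sends its lymph, antigens and migrating immune cells to its own nodes along the mesentery, so neighbouring nodes of one animal see different contents. Vitamin A is carried to these nodes as well, where dendritic and stromal cells turn it into retinoic acid, a signal that imprints gut homing on lymphocytes and favours IgA. Mast cells, which lead the results here, mature in tissues from marrow precursors, carry the IgE receptor, and store histamine and serine proteases in granules.

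Total estimated counts were 6127667 to 8896556 per library in the 20 libraries, so 1 CPM (library-scaled counts, corrected for composition) stood for 5.33 to 9.4 counts. Nkx2-3, a homeobox factor of gut-draining lymphoid vessels, had lowest, median and highest levels of 5.31, 8.53 and 10.7 CPM in small intestinal nodes and 8.58, 8.47, 9.82, 9.8 and 6.35 CPM in the 5 colonic libraries, and the sides overlapped. Libraries fall into 2 classes by the predicted transcript Gm19220, which took 1.03% to 1.7% of counts in 10 libraries of the series and 5.37% to 9.83% in the other 40. The low class holds 4 of the 15 small intestinal and 3 of the 5 colonic libraries. All 10 low-class libraries of the series are on the deficient diet. Genes of the exocrine pancreas took 3.06%, 1.91% and 22.4% of counts in duodenal libraries 2, 3 and 4 and at most 0.0804% in the other 17 libraries. Colonic library 4 had the highest summed level of mast cell genes on its side (154.6 CPM against 66.27 to 91.4 CPM in the other 4). Counts of calls are given with and without these libraries, and named genes that missed the threshold without the low Gm19220 class are said to have done so.

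Among 18387 genes tested, 325 (1.77%) differed between small intestinal and colonic nodes at a Benjamini-Hochberg adjusted p under 0.05 in edgeR's quasi-likelihood test. Of these, 234 (1.27%) were higher and 91 (0.495%) lower in small intestinal nodes. The median log2 fold change of all tested genes was -0.01. Taken singly, the duodenal node differed from the colonic node in 600 genes (3.26%), the jejunal node in 361 (1.96%) and the ileal node in 215 (1.17%). A set of 36 genes (0.196%) passed in the mean and in all 3 nodes with the same sign, 24 of them (0.131%) higher and 12 (0.0653%) lower. The 3 comparisons use the same 5 colonic libraries, so they are not independent of one another. Without the 10 libraries of the low Gm19220 class, which leaves 2 colonic libraries, 84 genes passed in the mean, 80 of them among the 325, and 53.6% of the 84 were higher against 72% of the 325. In the same fit 9 genes passed in all 3 nodes, 6 of them among the 36. All 36 had the same sign within each class of library, but they were chosen on these same libraries, so the shared sign is no separate support. Within the high class, with its 2 colonic libraries, 26 passed. The low class holds 1 duodenal and 1 jejunal library, so comparisons within it rest on single libraries there. Leaving out the pancreas-rich libraries gave 307 genes in the mean and 26 in all 3 nodes, of which 269 and 23 were among the calls with all libraries, and cut the duodenal calls to 194.

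Mast cell genes led the genes that were higher in small intestinal nodes. Of 19 tested genes on a list of mast cell genes, 13 were higher in small intestinal nodes and none was lower, with a median log2 fold change of 2.52 against -0.01 over all genes, and 9 were higher in each of the 3 nodes. In 9 of the 19, all 15 small intestinal libraries lay above all 5 colonic libraries, an order seen in 0.147% of all tested genes. The 9 that passed in every node are not the same 9 genes, since Cma1 and Cpa3 overlap between the sides. They encode granule proteases (Tpsab1, Tpsb2, Mcpt4, Cma1, Cpa3), the alpha chain of the IgE receptor (Fcer1a), the enzyme that makes histamine (Hdc) and the receptors Mrgprb1 and Mrgprb2. The tissue is bulk RNA, so more mast cells and more mast cell RNA per cell cannot be told apart.

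RefSeq promoters of 4 of these genes are shown because the genes moved together. Each window, on GRCm38.p6, runs from 250 bases before to 50 bases after the annotated start, and capitals mark GATAA or its reverse complement TTATC, the core letters bound by GATA factors. Gata2 is a GATA factor of mast cells and is among the 13 higher genes. Mcpt4 lies on the minus strand at chr14:56062261-56062560, Cma1 on the minus strand at chr14:55944626-55944925, Cpa3 on the minus strand at chr3:20242132-20242431 and Fcer1a on the minus strand at chr1:173227180-173227479.
Mcpt4: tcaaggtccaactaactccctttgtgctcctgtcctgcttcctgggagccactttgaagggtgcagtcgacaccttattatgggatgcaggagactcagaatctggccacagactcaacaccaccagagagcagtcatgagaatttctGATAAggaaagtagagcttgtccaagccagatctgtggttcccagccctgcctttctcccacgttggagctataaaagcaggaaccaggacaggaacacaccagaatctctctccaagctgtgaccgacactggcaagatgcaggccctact
Cma1: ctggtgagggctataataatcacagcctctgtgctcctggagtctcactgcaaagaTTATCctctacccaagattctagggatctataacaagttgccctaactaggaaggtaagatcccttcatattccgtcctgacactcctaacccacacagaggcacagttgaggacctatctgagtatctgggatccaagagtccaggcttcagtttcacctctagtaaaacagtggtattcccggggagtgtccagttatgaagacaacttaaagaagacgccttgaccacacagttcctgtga
Cpa3: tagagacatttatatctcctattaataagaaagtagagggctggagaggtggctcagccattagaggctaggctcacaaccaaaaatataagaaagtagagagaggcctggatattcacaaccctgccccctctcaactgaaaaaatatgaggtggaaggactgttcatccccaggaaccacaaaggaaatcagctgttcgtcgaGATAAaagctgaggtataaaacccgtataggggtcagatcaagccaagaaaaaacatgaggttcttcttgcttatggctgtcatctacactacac
Fcer1a: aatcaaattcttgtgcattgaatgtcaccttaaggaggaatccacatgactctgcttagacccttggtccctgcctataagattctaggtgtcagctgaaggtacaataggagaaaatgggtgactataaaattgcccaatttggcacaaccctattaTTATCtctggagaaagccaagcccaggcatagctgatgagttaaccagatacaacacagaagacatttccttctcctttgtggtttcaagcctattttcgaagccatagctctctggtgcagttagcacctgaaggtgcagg
The promoter table held 11 of the 13 genes, in 14 windows, since some genes have more than 1 start. A match on either strand was present in 7 of the 14 windows, each of a different gene. Among all 32851 windows of the same length in the table, 25.4% held a match. Every window shown holds a match, whereas no window of Hdc, Tph1, Cyp11a1 or Gata2 held one. A match is a description of the letters and not a bound site, and any action of GATA factors on these genes was not tested.

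Mcpt4, a chymase of connective tissue mast cells, read 117, 126, 50.7, 118 and 51.2 CPM in the 5 duodenal libraries, 97.7, 79.9, 65.6, 93 and 55.1 CPM in the jejunal and 56, 34.6, 22, 43.1 and 50.4 CPM in the ileal ones. The 5 colonic libraries read 3.38, 0.565, 1.49, 17.4 and 3.1 CPM. Colonic library 4 stood above the other 4 colonic libraries but below the lowest ileal library, so the sides did not overlap (log2 fold change 3.71 ± 0.41, adjusted p = 4.43e-08).

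The tryptase gene Tpsb2 had lowest, median and highest levels of 19.1, 65 and 133 CPM in small intestinal nodes against 2.6, 0, 0, 13.7 and 1.18 CPM in the colonic ones (log2 fold change 4.33 ± 0.55, adjusted p = 8.27e-07). Here 2 colonic libraries had no count, and again library 4 was the highest of the colonic side. The neighbouring tryptase Tpsab1 was lower in level, at 1.08, 6.08 and 13.7 CPM against 0, 0, 0.213, 0.645 and 0.148 CPM, with no overlap (log2 fold change 4.80 ± 0.52, adjusted p = 5.39e-08). Both tryptases are close copies of each other, so the split of reads between them is uncertain.

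Cma1, another chymase, spanned 8.89, 39.2 and 62.5 CPM in small intestinal nodes, and the colonic libraries held 1.56, 0.339, 0.747, 9.03 and 1.62 CPM (log2 fold change 3.63 ± 0.43, adjusted p = 2e-07). The carboxypeptidase gene Cpa3 spanned 9.01, 34 and 57.3 CPM against 1.04, 0.565, 3.1, 9.54 and 1.33 CPM (log2 fold change 3.36 ± 0.38, adjusted p = 6.62e-08). For both, colonic library 4 lay just above ileal library 3, the lowest of the small intestinal side, and this pair alone made the sides overlap. Without colonic library 4, all 9 genes still passed.

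Fcer1a was read at 1.24, 4.14 and 6.9 CPM in small intestinal nodes and 0.13, 0, 0.107, 0.902 and 0.738 CPM on the colonic side (log2 fold change 3.33 ± 0.49, adjusted p = 1.31e-05). Hdc was read at 3, 7.5 and 18.1 CPM against 1.69, 1.92, 1.6, 2.45 and 1.03 CPM, again with no overlap (log2 fold change 2.15 ± 0.30, adjusted p = 6.49e-06). The Mas-related receptor genes Mrgprb1 (log2 fold change 3.65 ± 0.53, adjusted p = 1.31e-05) and Mrgprb2 (log2 fold change 2.79 ± 0.54, adjusted p = 0.00162), the latter a receptor through which cationic peptides trigger mast cells, were at or under 1.55 CPM in every colonic library. Mrgprx2, a relative that was not on the list, differed likewise (log2 fold change 2.92 ± 0.54, adjusted p = 0.000627). Mrgprb2 and Mrgprx2 did not pass without the low Gm19220 class (adjusted p = 0.73 and 0.592). These receptors resemble one another, and reads may have been divided between them by the counting.

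**Figure D1:**
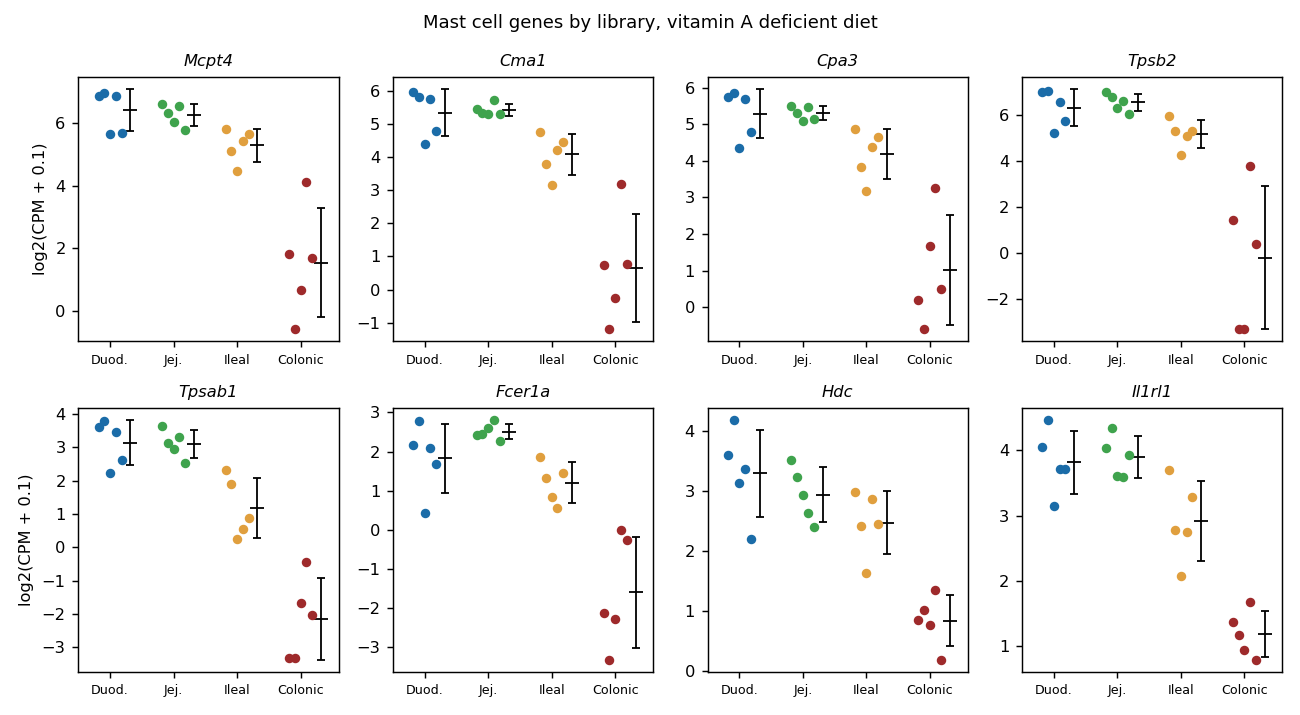
Levels of 8 genes in the 20 deficient libraries, as log2 of CPM plus 0.1 (y axis) by node (x axis). Points are libraries in the order 1 to 5, and bars give the mean ± SD of the 5. Small intestinal libraries lie above the colonic ones, apart from colonic library 4 for Cma1 and Cpa3, and ileal nodes have the lowest small intestinal means.

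The remaining 4 called members of the mast cell list passed in the mean but not in the ileal node. Mcpt1, a chymase of mucosal mast cells, had no count in any colonic library and averaged 1.67 CPM in small intestinal nodes. Measured against a floor of 3 counts over the 5 colonic libraries (0.074 CPM), that is at least 22.6-fold higher. Cyp11a1, a steroid-making enzyme found in mast cells (log2 fold change 1.81 ± 0.32, adjusted p = 0.00029), Tph1, which makes serotonin (log2 fold change 2.52 ± 0.59, adjusted p = 0.0105), and Gata2 (log2 fold change 1.08 ± 0.24, adjusted p = 0.00754) complete the group. Gata2 is also made by endothelial cells. None of these 4 passed without the low Gm19220 class, where 8 of the list were higher. Slc6a4, the serotonin transporter gene, was not on the list and passed in every node, at 1.32, 4.97 and 7.7 CPM against 0.26, 0.226, 0.64, 0.774 and 0.885 CPM, with no overlap (log2 fold change 3.00 ± 0.50, adjusted p = 0.000152). It did not pass without the low Gm19220 class (adjusted p = 0.101), nor within the high (adjusted p = 0.0595) or the low class (adjusted p = 0.172).

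Il1rl1, the receptor for the alarmin IL-33 on mast cells, regulatory T cells and innate lymphoid cells, had 4.08, 12.8 and 22 CPM in small intestinal nodes and 2.47, 2.15, 1.81, 3.09 and 1.62 CPM in colonic nodes. The 15 libraries all lay above the 5 (log2 fold change 2.43 ± 0.31, adjusted p = 7.2e-07). Its ligand gene Il33 did not pass (22.8, 36 and 59.3 CPM against 38, 32.6, 30.1, 27.6 and 36.2 CPM, log2 fold change 0.18 ± 0.11, adjusted p = 0.632). Of the other cells that bear the IgE receptor or are drawn by type 2 signals, none of 5 basophil and eosinophil genes passed (median log2 fold change 0.59), and Il1rl1 was the only one of 9 type 2 genes that did. The mast cell list members Kit, Mitf, Hpgds, Slc45a3, Ms4a2 and Rgs13, of which Kit, Mitf and Hpgds are made by several cell types, did not pass.

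Summed over the 19 tested list members, levels were 228.6 to 548.8 CPM in duodenal, 329.3 to 470.2 CPM in jejunal and 137.1 to 287.5 CPM in ileal libraries, against 66.27 to 154.6 CPM in colonic ones. The sums include Kit, Mitf and Hpgds, which several cell types make, so they are not a level of mast cells alone. The lowest ileal sum, that of library 3, was under the highest colonic sum, that of library 4. Among the small intestinal nodes alone, Tpsab1 differed (adjusted p = 0.00449), with means ± SD of 9.48 ± 3.95, 8.81 ± 2.54, 2.56 ± 1.66 and 0.201 ± 0.265 CPM in nodes of the duodenum, jejunum, ileum and colon (n = 5 each). Over all genes, 843 (4.58%) differed among the 3 nodes. Within the high Gm19220 class 8 of the 19 list members passed and within the low class 9, all of them higher. Without the pancreas-rich libraries 13 passed, as with them.

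On the sufficient diet the same contrast called 705 genes (3.83%), 487 higher (2.65%) and 218 lower (1.19%). None of the 9 mast cell genes that passed in every deficient node passed there, and the median log2 fold change of the list was -0.02. Of its 19 members 3 were higher, Gata2 (log2 fold change 1.14 ± 0.26, adjusted p = 0.00487), Slc45a3 (log2 fold change 0.82 ± 0.16, adjusted p = 0.000491) and Hpgds (log2 fold change 0.56 ± 0.17, adjusted p = 0.046). Mcpt4 had lowest, median and highest levels of 0.233, 0.675 and 3.12 CPM in the 15 sufficient small intestinal libraries and 0.906 ± 0.631 CPM (SD, n = 5) in colonic ones (log2 fold change -0.01 ± 0.45, adjusted p = 0.999). Cpa3 had 0.757, 1.16 and 4.12 CPM and 1.18 ± 0.567 CPM (log2 fold change 0.33 ± 0.50, adjusted p = 0.855). Summed list levels were 92.94 to 134.4 CPM in sufficient small intestinal nodes and 70.48 to 101 CPM in sufficient colonic nodes. Kit, Mitf and Hpgds are part of these sums too, whereas Mcpt4 and Cpa3 add little to them.

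The difference between the diets was itself tested as an interaction, and 15 genes passed (0.0816%), all with a larger value on the deficient diet. At an unadjusted p under 0.05 there were 1147 genes. Of the mast cell list, Cma1 (interaction 4.42 ± 0.79, adjusted p = 0.0029), Cpa3 (3.03 ± 0.65, adjusted p = 0.0398) and Tph1 (4.35 ± 0.93, adjusted p = 0.0398) passed, as did Il1rl1 (2.33 ± 0.41, adjusted p = 0.0029). The other mast cell genes did not pass, Mcpt4 with 3.71 ± 0.93, adjusted p = 0.147 and Tpsb2 with 5.19 ± 1.67, adjusted p = 0.448. Restricting both diets to females leaves 2 sufficient libraries per node, and then S100a4 was the 1 gene that passed. In that fit the interaction of Cma1 was 4.39 (adjusted p = 0.601) and that of Il1rl1 1.97 (adjusted p = 0.509). Without the low Gm19220 class, 5 genes passed, 2 with a larger value on the deficient diet and 3 with a smaller one. Of the 15 genes, H2-M2 and Asprv1 alone kept their call there, and Cma1, Il1rl1, Cpa3 and Tph1 did not. Over 26 alternative fits the interaction lost its call in 3 for Cma1, 3 for Il1rl1, 17 for Cpa3 and 19 for Tph1.

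Outside the mast cell list, 15 further genes were higher in all 3 nodes, among them Mrgprx2, Slc6a4 and Il1rl1. Igha, the heavy chain gene of IgA, was the most abundant. Its small intestinal levels were 1582, 3033 and 4423 CPM and its colonic levels 1179, 804, 388, 1653 and 459 CPM. Colonic libraries 1 and 4 were the highest of the 5, and only library 4 reached the range of the small intestinal side (log2 fold change 1.79 ± 0.38, adjusted p = 0.00377). Sufficient colonic nodes held 2439 ± 338 CPM (SD, n = 5), and on that diet the contrast missed the threshold (log2 fold change 0.05 ± 0.34, adjusted p = 0.98). The interaction did not pass either (1.74 ± 0.49, adjusted p = 0.264). Within the high and low Gm19220 classes the difference was 1.20 (adjusted p = 0.802) and 2.25 (adjusted p = 0.0728), so it passed in neither class alone. Igha did not pass without the low class either. Of 18 plasma cell genes tested Igha alone was higher, while Mzb1, a chaperone of antibody secretion, was lower (log2 fold change -0.55 ± 0.13, adjusted p = 0.0146) and the list median was -0.25.

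Fcna, Hk3, Tbxas1 and Gbp2b were higher in every small intestinal node and on both diets. Fcna, a ficolin of macrophages, had 18.3, 28.2 and 43.5 CPM against 6.11, 7.45, 12.9, 16.5 and 7.53 CPM without overlap (log2 fold change 1.48 ± 0.20, adjusted p = 2.45e-06). Hk3, the myeloid hexokinase, had 27.9, 32.1 and 65.9 CPM against 14.6, 21.9, 17.8, 17 and 11.8 CPM (log2 fold change 1.22 ± 0.16, adjusted p = 2.05e-06), and Tbxas1, thromboxane synthase, had 8.77, 14.7 and 26.8 CPM against 2.73, 6.1, 6.72, 6.83 and 4.87 CPM (log2 fold change 1.46 ± 0.23, adjusted p = 5.73e-05). For these too the 15 libraries lay above the 5. Gbp2b, an interferon-inducible guanylate-binding protein gene, was higher without overlap (log2 fold change 1.79 ± 0.25, adjusted p = 4.54e-06), while the other 15 tested genes of its family did not pass. Gbp2b belongs to a family of close copies, which makes its count less certain.

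Col6a6 and Cyp1b1 were higher in every node and on both diets as well. Col6a6, a chain of collagen VI, had 4.02, 5.97 and 10.5 CPM in small intestinal and 1.17, 1.92, 1.71, 1.29 and 1.48 CPM in colonic libraries, with no overlap (log2 fold change 2.01 ± 0.21, adjusted p = 1.86e-08). The cytochrome gene Cyp1b1, whose enzyme can oxidise retinol, had 84.1, 102 and 137 CPM against 52.7, 47.5, 45, 61.4 and 47.2 CPM (log2 fold change 1.03 ± 0.11, adjusted p = 3.03e-08), also without overlap. Sufficient nodes showed differences of 2.13 and 1.05 for these genes, both past the threshold. The complement gene C6 (log2 fold change 2.04 ± 0.36, adjusted p = 0.00029), the secreted Olfml3 (log2 fold change 0.94 ± 0.16, adjusted p = 0.000105), the latent TGF-beta binding protein Ltbp2 (log2 fold change 0.58 ± 0.12, adjusted p = 0.00272), the cell cycle inhibitor Cdkn1a (log2 fold change 0.72 ± 0.13, adjusted p = 0.000237) and the myeloid receptor Cd200r4 (log2 fold change 0.86 ± 0.19, adjusted p = 0.00461) passed in every node with overlap between the sides. C6 and Cd200r4 passed within neither Gm19220 class, Ltbp2 and Olfml3 not within the high class, and Cdkn1a not within the low class. None of these 5 passed without the low class.

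**Figure D2:**
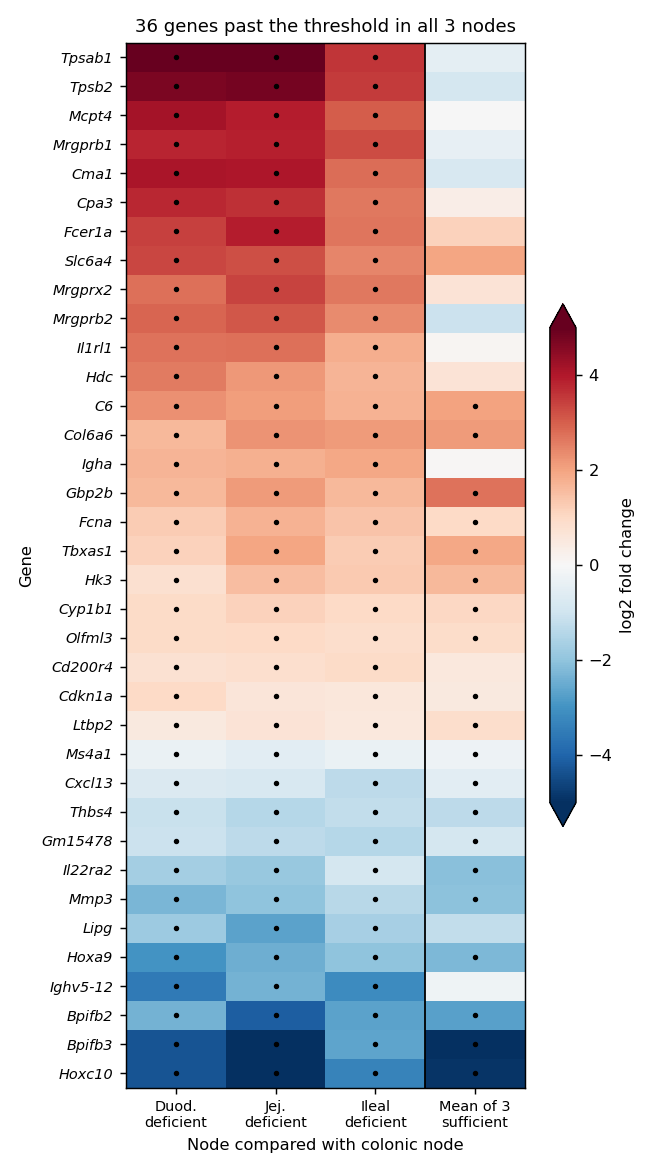
Log2 fold change against colonic nodes of the 36 genes that passed in all 3 deficient nodes. Columns are the 3 nodes on the deficient diet and the mean of the 3 on the sufficient diet, colours run from -5 to 5, and dots mark adjusted p under 0.05. The rows of mast cell genes are dark in the deficient columns and carry no dot in the sufficient one, while 10 of the 12 lower rows carry a dot in every column.

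Genes that were higher in colonic nodes included posterior Hox genes, transcription factors that keep a record of position along the body axis. Hoxc10 had 2.6, 2.26, 2.56, 2.45 and 1.77 CPM in the 5 colonic libraries, no count in any jejunal library and at most 0.343 CPM elsewhere in the small intestinal side. That difference (log2 fold change -4.94 ± 0.38, adjusted p = 1.51e-11) rests on 95 counts over the colonic libraries and 13 over the small intestinal ones. Hoxa9 had 5.2, 4.4, 3.52, 5.29 and 4.13 CPM in colonic nodes and 0, 0.705 and 2.17 CPM in small intestinal ones, with no overlap (log2 fold change -2.48 ± 0.37, adjusted p = 1.57e-05). Hoxa10 also kept the sides apart, with 1.04, 1.47, 1.6, 1.16 and 1.62 CPM against 0, 0.249 and 0.618 CPM (log2 fold change -2.37 ± 0.45, adjusted p = 0.000874), but did not pass in the ileal node or without the low Gm19220 class. Of 21 Hox genes tested these 3 were lower and none was higher, with a list median of -0.21, and the same 3 differences on the sufficient diet were -4.92, -2.26 and -3.15. Tbx18, a patterning factor outside the Hox family, was lower too (log2 fold change -2.12 ± 0.49, adjusted p = 0.0106), though not without the low Gm19220 class.

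Mmp3, Thbs4, Lipg, Bpifb2 and Bpifb3 were also lower in every node. Mmp3, the matrix protease stromelysin, had 6.24, 5.53, 6.19, 5.42 and 5.31 CPM in colonic and 0.796, 1.49 and 2.64 CPM in small intestinal nodes (log2 fold change -1.90 ± 0.19, adjusted p = 4.39e-09). Thbs4, a matrix protein of the thrombospondin family, had 14.6, 10.2, 12.2, 10.1 and 8.41 CPM against 2.7, 4.45 and 6.96 CPM (log2 fold change -1.25 ± 0.17, adjusted p = 5.55e-06). Neither overlapped between the sides, and the other 13 tested matrix protease genes did not pass. Lipg, the endothelial lipase gene, had 12.5, 5.87, 7.26, 7.74 and 9.45 CPM against 0.751, 1.76 and 6.06 CPM, where ileal library 4 reached the lowest colonic library (log2 fold change -2.06 ± 0.30, adjusted p = 1.31e-05). Bpifb2 and Bpifb3, secreted lipid-binding relatives, had log2 fold changes of -3.04 and -4.14 and rest on few counts (45 and 157 over the colonic libraries, 17 and 36 over the small intestinal ones).

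Cxcl13 and 5 B cell genes were lower in small intestinal nodes. Cxcl13, the chemokine that draws B cells into follicles, had 87.5, 50.7, 78.3, 52.4 and 78.7 CPM in colonic and 21.8, 40.9 and 46 CPM in small intestinal nodes (log2 fold change -0.93 ± 0.11, adjusted p = 2e-07). Every small intestinal library lay below every colonic one. The B cell gene Ms4a1 (CD20) had 303, 295, 323, 247 and 332 CPM against 197, 233 and 265 CPM, where only colonic library 4 lay within the small intestinal range (log2 fold change -0.40 ± 0.07, adjusted p = 0.000687). Of 15 B cell genes tested, 5 were lower, Ms4a1, Bank1 and Ighm among them, none had a positive difference, and the median was -0.21, whereas 47.7% of all tested genes had a positive one. Grem1, a stromal BMP antagonist, was lower as well (log2 fold change -0.43 ± 0.08, adjusted p = 0.0014). Within the low Gm19220 class none of the 15 B cell genes passed, and within the high class 1 did. Over 24 alternative fits Bank1 lost its call in 8 and Ighm in 10, and Ms4a1, Bank1 and Grem1 did not pass without the low class.

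Il22ra2, which encodes the secreted IL-22 binding protein, had 68.3, 21, 41.3, 42.7 and 51.5 CPM in colonic and 7.89, 15 and 34.9 CPM in small intestinal libraries. Colonic library 2 was the lowest of its side and lay within the ileal range (log2 fold change -1.49 ± 0.18, adjusted p = 2e-07). Of 11 genes on a list of IL-22 and epithelial cytokine genes it was the one that passed. Ighv5-12, an immunoglobulin heavy chain V segment, also met the rule in every node, but its colonic values of 1.56, 1.24, 3.63, 28.2 and 42.8 CPM rest on libraries 4 and 5 (log2 fold change -3.01 ± 0.41, adjusted p = 3e-06). The predicted gene Gm15478 completes the 12 lower genes (log2 fold change -1.26 ± 0.19, adjusted p = 2.1e-05), but did not pass without the low Gm19220 class. Of 181 V segments tested, 19 (10.5%) were lower, 1 was higher and the median difference was -0.32. Near-identical segments share reads, so values of single segments are uncertain.

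**Figure D3:**
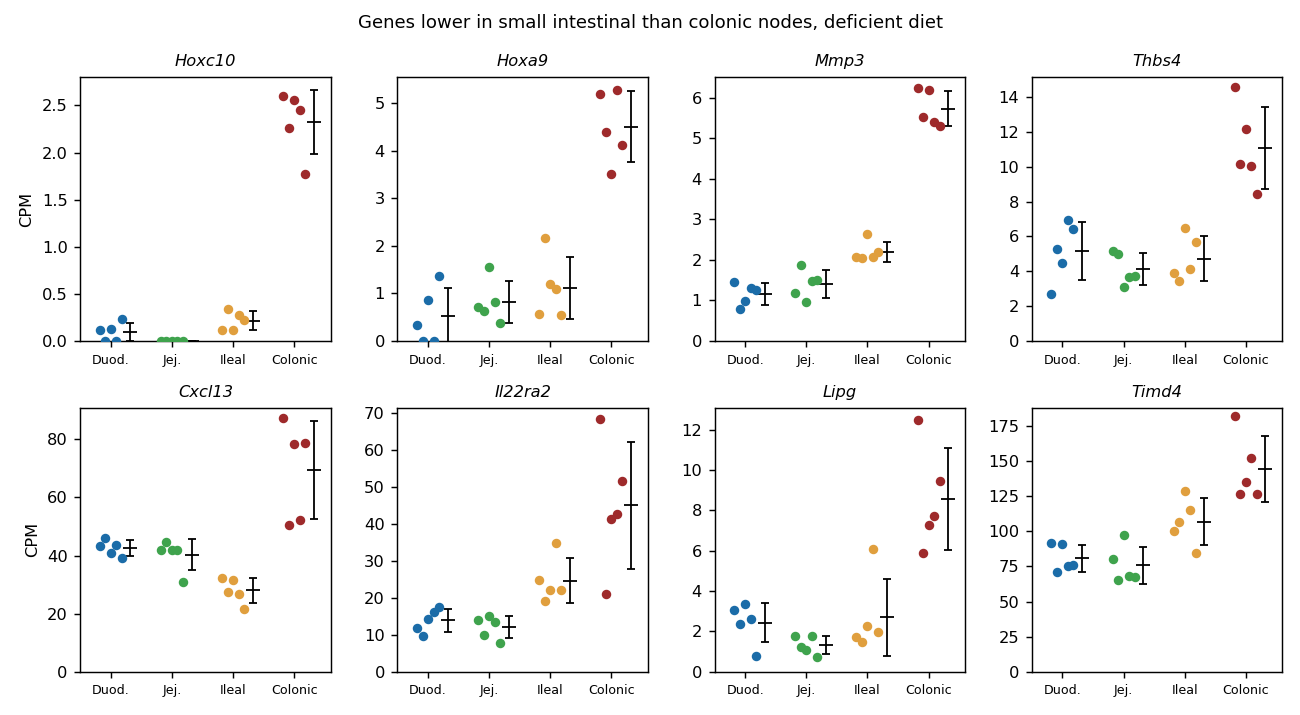
Levels in CPM (y axis, from 0) by node (x axis) of 8 genes lower in small intestinal nodes. Points are the 5 libraries of a node and bars the mean ± SD. Hoxc10, Hoxa9, Mmp3, Thbs4 and Cxcl13 keep the sides apart, and ileal values of Il22ra2 and Timd4 lie nearer to the colonic ones.

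Across the diets, 20 of the 36 genes passed with the same sign in sufficient nodes, 55.6% of the 36 and 2.84% of the 705 sufficient calls. They comprise 10 of the 15 higher genes outside the mast cell list and 10 of the 12 lower genes. For the whole contrast, 152 genes passed with the same sign on both diets, 46.8% of the deficient and 21.6% of the sufficient calls, and 2 passed with opposite signs. The interaction was past the threshold for 3 of the 36, Cma1, Cpa3 and Il1rl1.

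**Figure D4:**
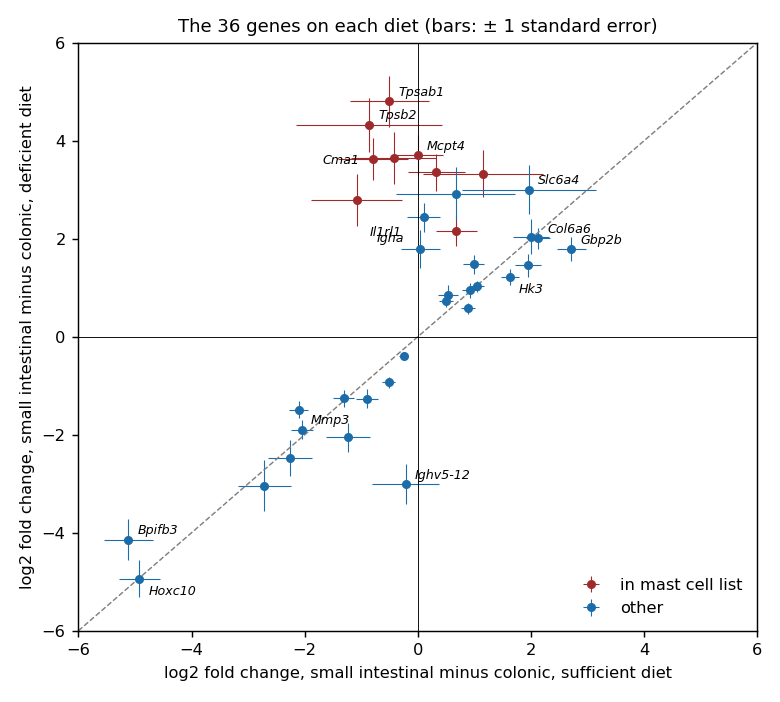
Log2 fold change of small intestinal minus colonic nodes on the deficient diet (y axis) and the sufficient diet (x axis) for the 36 genes, with bars of ± 1 standard error and a dashed line of equality. Mast cell genes lie high on the y axis at sufficient values between -1.08 and 1.15, and most other genes lie near the line.

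Many genes passed in the mean without passing in every node. Of the 325, 121 (37.2%) differed among the 3 small intestinal nodes. Of the 105 higher genes that did so, the duodenal node had the highest mean in 66, the ileal in 25 and the jejunal in 14, and the ileal node had the lowest in 70, the duodenal in 35 and the jejunal in none. Without the pancreas-rich libraries, all of them duodenal, 247 genes in place of 843 differed among the 3 nodes.

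Genes of migratory dendritic cells, which bring antigen from the gut wall, had list medians of 0.65 in the duodenal, 0.46 in the jejunal and 0.03 in the ileal node against colonic. Ccl22, a chemokine of mature dendritic cells, read 333, 373, 178, 282 and 249 CPM in duodenal, 142, 147, 90.8, 161 and 125 CPM in jejunal and 80.1, 68.2, 55.3, 64.2 and 59.5 CPM in ileal libraries. Colonic libraries read 53.6, 47.5, 54.7, 49.2 and 41 CPM. All 15 lay above the 5 (log2 fold change 1.46 ± 0.13, adjusted p = 2.86e-10), yet the ileal node on its own did not pass (0.41 ± 0.15, adjusted p = 0.264), and the 3 nodes differed (adjusted p = 7.15e-13). Of 20 tested genes on the list, 10 were higher in the mean and none lower (median 0.38). By node 14 passed against colonic in the duodenal node, 8 in the jejunal and none in the ileal, and 15 differed among the 3. Over all 18387 genes, 442, 280 and 180 were higher in these nodes in the same order, and 843 (4.58%) differed among the 3.

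Ccl17, the companion chemokine of Ccl22, averaged 7.7 ± 2.97, 2.95 ± 1.05, 2.07 ± 0.423 and 0.986 ± 0.336 CPM in nodes of the duodenum, jejunum, ileum and colon (SD, n = 5). Apol7c, a dendritic cell gene, averaged 679 ± 164, 461 ± 91.6, 229 ± 43.1 and 198 ± 18.9 CPM, and Fscn1, which bundles actin in mature dendritic cells, 854 ± 151, 633 ± 156, 324 ± 53.7 and 345 ± 20.4 CPM in the same order. In each, the duodenal mean was the highest and the ileal node did not pass against the colonic one. Nudt17 (0.79 ± 0.12, adjusted p = 2.1e-05) and Basp1 (0.60 ± 0.11, adjusted p = 0.000551) had log2 differences of the same pattern. Pla2g4f, a phospholipase gene (1.25 ± 0.19, adjusted p = 1.78e-05), and Itih4 (1.20 ± 0.28, adjusted p = 0.0095) followed it. Of the conventional type 1 dendritic cell list Clec9a, Batf3 and Cadm1 were higher among 12 tested, and none of 13 genes on the type 2 list passed. Over 24 alternative fits Batf3 lost its call in 16, Clec9a in 8 and Cadm1 in 7, and none of the 12 was higher without the low Gm19220 class. Fscn1, Basp1 and Itih4 did not pass without that class either. Within the low Gm19220 class, 1 migratory dendritic cell gene passed, Ccl22, and within the high class 6 did.

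Regulatory T cell genes were uneven as well. Among 15 tested, Tnfrsf4, the costimulatory receptor OX40, and Il1rl1 were higher in the mean, and 9 were higher in the duodenal node, 2 in the jejunal and 2 in the ileal. Over all 18387 genes, 442 were higher in the duodenal node, 280 in the jejunal and 180 in the ileal, so the duodenal node called more genes in general. Tnfrsf4 averaged 49 ± 9.36, 32.9 ± 3.8, 20.6 ± 2.2 and 20.4 ± 3.03 CPM in nodes of the duodenum, jejunum, ileum and colon (SD, n = 5). Klrg1, a receptor of effector lymphocytes, was at 1.1, 1.91 and 5.84 CPM against 0.91, 0.79, 0.96, 0.774 and 0.59 CPM with no overlap, though its ileal difference alone did not pass (1.10 ± 0.39, adjusted p = 0.239) and its mean difference did not pass without the low Gm19220 class.

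Macrophage genes had list medians of -0.08 in the duodenal, 0.23 in the jejunal and 0.43 in the ileal node against colonic. Of 16 tested, 7 differed among the 3, against 4.58% of all tested genes. Adgre1, which encodes F4/80, had duodenal values of 37, 35.6, 29.4, 26.3 and 30.2 CPM, jejunal values of 67.4, 77.1, 69.7, 39.2 and 41.1 CPM and ileal values of 52.5, 55.2, 36.3, 51.6 and 38.5 CPM. In colonic libraries it read 17.7, 18.4, 18.4, 29.4 and 20.1 CPM, with library 4 the highest. Its difference was 1.10 ± 0.16, adjusted p = 1.33e-05 in the mean and 0.61 ± 0.19, adjusted p = 0.0584 in the duodenal node. Marco, a scavenger receptor of sinus macrophages and lymphatic endothelium, averaged 668 ± 79.1, 1149 ± 234, 1040 ± 166 and 496 ± 172 CPM in the 4 nodes (SD, n = 5, log2 fold change 0.90 ± 0.16, adjusted p = 0.000237). Of 16 macrophage genes tested, Adgre1, C1qa, C1qb, C1qc and Csf1r were higher, Timd4 was lower and the median was 0.12. None of the 16 was higher without the low Gm19220 class, where Marco did not pass either. Within the high Gm19220 class none of the 16 was higher, and within the low class Adgre1 was. Marco passed within the low class (adjusted p = 0.00185) but not the high class (adjusted p = 0.612).

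Timd4, a receptor for dying cells on resident macrophages, ran the other way, with 182, 126, 135, 152 and 126 CPM in colonic and 65.6, 84.6 and 129 CPM in small intestinal nodes (log2 fold change -0.73 ± 0.10, adjusted p = 6.23e-06). Ccl8, a chemokine of resident macrophages (log2 fold change -1.22 ± 0.27, adjusted p = 0.00554), Lyz1 (log2 fold change -1.15 ± 0.16, adjusted p = 8.53e-06) and the paired receptor genes Cd300ld4 (log2 fold change -2.14 ± 0.32, adjusted p = 2.26e-05) and Cd300ld5 (log2 fold change -1.70 ± 0.35, adjusted p = 0.00214) were lower in the mean but not in the ileal node. The Cd300ld genes are close copies, and the division of reads between them is uncertain. Syndig1l was lower in duodenal and jejunal nodes only, with means of 1.18 ± 0.223, 3.77 ± 0.397, 9.49 ± 1.13 and 8.83 ± 3.13 CPM in nodes of the duodenum, jejunum, ileum and colon (SD, n = 5, adjusted p = 1.94e-07 among the 3 small intestinal nodes). Cemip, a hyaluronan-degrading protein, was lower in the mean (log2 fold change -1.30 ± 0.23, adjusted p = 0.000301) and also missed the threshold in the ileal node. Cemip and Ccl8 did not pass without the low Gm19220 class.

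Genes highest in ileal or jejunal nodes included Tgm2, a transglutaminase induced by retinoic acid, at 167 ± 10.8, 254 ± 54, 282 ± 65.4 and 149 ± 31.4 CPM in nodes of the duodenum, jejunum, ileum and colon (SD, n = 5, log2 fold change 0.61 ± 0.14, adjusted p = 0.0106). Dhrs3, a retinal reductase also induced by retinoic acid, was higher in the mean (log2 fold change 0.59 ± 0.14, adjusted p = 0.0106). They were the 2 of 14 retinoic acid response genes that passed, and Dhrs3 was the one of 19 retinoid metabolism genes. Over 24 alternative fits Tgm2 lost its call in 6 and Dhrs3 in 8, and neither passed without the low Gm19220 class. Aldh1a2, which makes retinoic acid, was at 1.98 ± 0.725, 2.98 ± 1.17, 2.99 ± 2.02 and 2.33 ± 1.47 CPM in the 4 deficient nodes (SD, n = 5) and did not differ past the threshold (log2 fold change 0.14 ± 0.30, adjusted p = 0.948). On the sufficient diet it was at 55 ± 16.8, 49.4 ± 4.49, 37 ± 7.3 and 17.3 ± 2.65 CPM and higher in small intestinal nodes (log2 fold change 1.43 ± 0.23, adjusted p = 6.42e-05). Lrat, which esterifies retinol, had 0.685, 1.19 and 3.17 CPM against 0.65, 0.903, 0.747, 1.29 and 0.738 CPM in deficient nodes, and Cyp26b1, which degrades retinoic acid, 0, 0.457 and 0.929 CPM against 2.6, 0.226, 0.747, 0.902 and 1.48 CPM. Neither passed, the first with 0.73 ± 0.30, adjusted p = 0.278 and the second with -1.12 ± 0.39, adjusted p = 0.15. The interaction passed for none of Aldh1a2 (-1.29 ± 0.38, adjusted p = 0.335), Lrat (-0.30 ± 0.38, adjusted p = 0.991) and Cyp26b1 (-1.74 ± 0.48, adjusted p = 0.228).

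**Figure D5:**
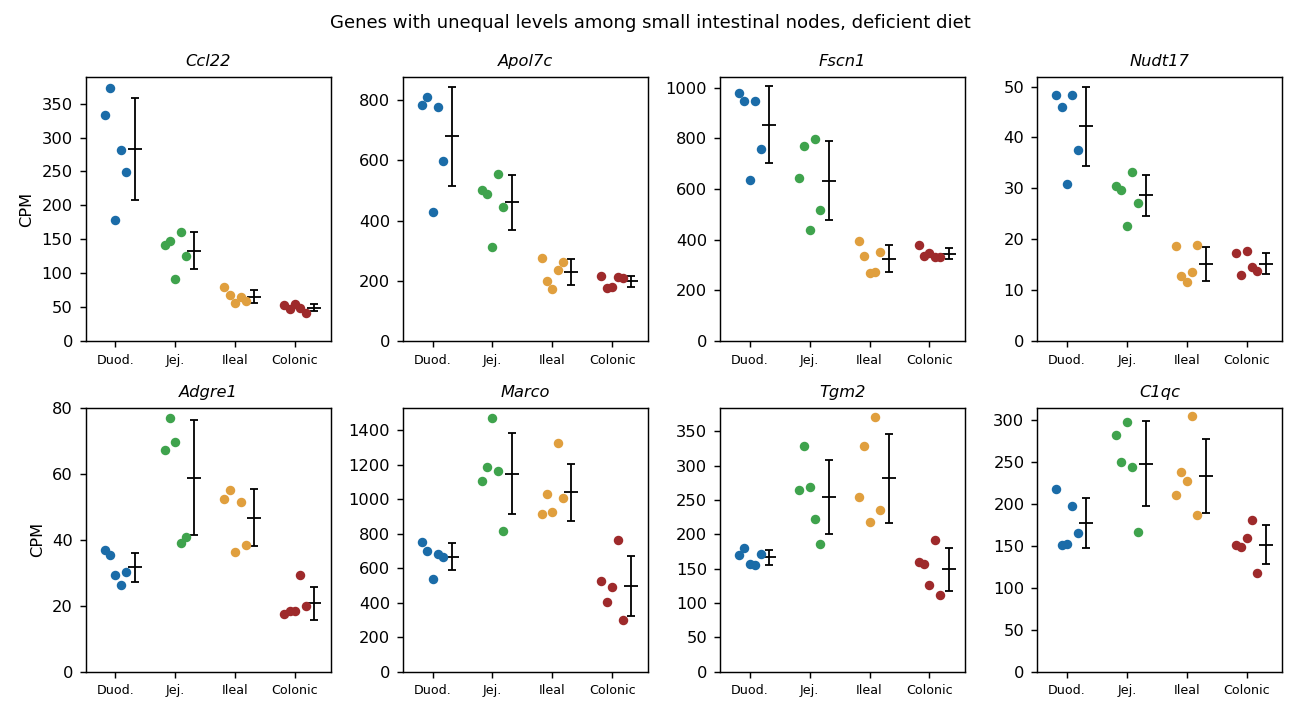
Levels in CPM (y axis, from 0) by node (x axis) of 8 genes with unequal small intestinal levels. Points are the 5 libraries of a node and bars the mean ± SD. In the upper row means fall from duodenal to ileal nodes, which lie near the colonic ones. In the lower row jejunal and ileal means of Adgre1, Marco and Tgm2 lie above duodenal and colonic ones, and single libraries of Adgre1 overlap between nodes.

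Several interaction genes lay outside the 36. S100a4, a calcium-binding protein of migrating cells, averaged 140 ± 33.4, 81.1 ± 10.2, 60.7 ± 5.22 and 58.5 ± 6.29 CPM in nodes of the duodenum, jejunum, ileum and colon on the deficient diet and 35.3 ± 9.14, 29.6 ± 7.33, 23.8 ± 4.49 and 38.9 ± 5.8 CPM on the sufficient one (interaction 1.03 ± 0.15, adjusted p = 0.000243). H2-M2, a non-classical MHC gene, averaged 78.3 ± 15.8, 55.5 ± 8.38, 35.1 ± 6.35 and 31.8 ± 2.31 CPM and 22.6 ± 7.24, 14.5 ± 5.91, 12.2 ± 3.71 and 20.2 ± 4.21 CPM in the same order (interaction 1.13 ± 0.16, adjusted p = 0.000137). For both, the contrast was above 0 on the deficient diet and below 0 on the sufficient diet, past the threshold each time. The deficient contrast of S100a4 did not pass without the low Gm19220 class. Gpr15lg, a chemoattractant ligand gene (1.93 ± 0.31, adjusted p = 0.000786), Asprv1 (1.75 ± 0.28, adjusted p = 0.000677), Adam11 (1.42 ± 0.25, adjusted p = 0.0024) and Rufy4 (1.40 ± 0.23, adjusted p = 0.00112) also passed. In these 4 the sufficient contrast was below 0 and past the threshold, and the deficient contrast did not pass. It passed for Gpr15lg with the replicate number as a block (adjusted p = 0.0139) and with DESeq2 (adjusted p = 0.0297), and for Asprv1 without deficient replicate 3.

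Gene groups of other cells and states gave few calls. No member passed in the mean among 10 MHC class II genes, 16 naive T cell genes or 9 gut homing genes. The same held for 14 high endothelial venule genes, 13 medullary stroma genes and 16 cell cycle genes. Over all tested genes 1.77% passed, so lists this short would hold few calls at that share. Madcam1, the vascular address for gut-homing cells, had 15.2, 36.1 and 53.2 CPM against 47.5, 40.5, 50.4, 39.1 and 29.8 CPM (log2 fold change -0.24 ± 0.17, adjusted p = 0.699). Among 15 genes of reticular and follicular stroma, Tnfsf11 and Clu were higher and Cxcl13 and Grem1 lower. Of 15 collagen genes Col6a6 and Col14a1 were higher, and Fn1, which encodes fibronectin, and Lum, a collagen-binding proteoglycan, were higher on their lists (log2 fold change 0.90 ± 0.17, adjusted p = 0.00061 for Fn1 and 0.66 ± 0.15, adjusted p = 0.0072 for Lum). Myh11 and Rgs5, of smooth muscle and pericytes, were lower (log2 fold change -0.64 ± 0.16, adjusted p = 0.0205 for Myh11 and -0.57 ± 0.11, adjusted p = 0.000894 for Rgs5), as was Igfbp5 (-0.56 ± 0.14, adjusted p = 0.0193). Over 24 alternative fits Col14a1 lost its call in 15, Tnfsf11 in 13, Igfbp5 in 12 and Myh11 in 11, and these 4, Clu, Lum and Rgs5 did not pass without the low Gm19220 class. All 20 tested pancreas genes passed in the duodenal node, none did in the mean, and their part in other duodenal differences was not tested.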

How the data were processed

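Poly(A) RNA libraries of lymph nodes were sequenced in 10 groups of 5, and the authors deposited estimated counts per gene for 56600 gene entries, 379 of them unnamed. The submitters' processing notes name kallisto, limma, edgeR, GRCm39 and mm10, with roles and versions not given in the sources used here. Columns were matched to samples by diet, node and number; those of the deficient diet also carry the word 3rd, which the sources used here do not explain. Estimated counts were rounded. Genes were kept with filterByExpr (18387 genes) and scaled with TMM. One quasi-likelihood model over all 50 libraries held 1 mean for each node on each diet, plus sex (edgeR 4.0.16, limma 3.58.1, R 4.3.3), and p-values were adjusted by Benjamini-Hochberg over all genes. Standard errors are derived from the fold change and F statistic and are approximate. The members, gene lists and tests were chosen with earlier results of these data known.

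Genes were named by rule: up to 15 per direction with the largest change in all 3 nodes and at least 5 CPM, up to 5 per list, up to 6 per direction not past in all 3 nodes, up to 8 interaction genes per direction, and set genes. The members of the 36 under 5 CPM or outside that rule, the mast cell genes beyond the 5 per list, and Ighv3-1, Eno2 and Anxa2 were named after their values were seen. Alternatives were RLE size factors, other filters, limma-voom, DESeq2 1.42.0, no sex term, females only, a replicate block, the 20 libraries alone, library classes and left-out libraries. The model was tested on simulated data. Figures used Python's matplotlib.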

Additional observations from a re-analysis of the deposited data

Results flagged for a closer look

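Among 188 groups of 5 libraries examined (47 genes in 4 deficient nodes), 9 had a highest or lowest library set apart from the others by Dixon's criterion, where chance gives about 1 in 20. The number of flags is thus about what chance gives. Colonic library 4 was the high one for 5 mast cell genes, with 9.54 CPM for Cpa3, 9.03 CPM for Cma1, 13.7 CPM for Tpsb2, 17.4 CPM for Mcpt4 and 0.903 CPM for Mrgprb2. These 5 genes moved together, so their flags are not separate events. The others were Cxcl13 in jejunal library 5 (30.9 CPM), Mmp3 in ileal library 3 (2.64 CPM), Lipg in ileal library 4 (6.06 CPM) and Bpifb3 in duodenal library 3 (0.494 CPM).

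The small intestinal minus colonic log2 value differed between the diets, by the interaction term, in 14 named genes, and was more positive on the deficient diet in each. For Gpr15lg, Asprv1, Adam11, Rufy4, Eno2 and Syndig1l the sufficient value was the farther from 0. The log2 interaction was 4.42 for Cma1, 3.03 for Cpa3 and 4.35 for Tph1 among mast cell genes, 2.33 for Il1rl1 and 0.69 for Tnfrsf4. It was 1.03 for S100a4, 1.13 for H2-M2, 1.93 for Gpr15lg, 1.75 for Asprv1, 1.42 for Adam11 and 1.40 for Rufy4. For Syndig1l it was 1.78, for the enolase gene Eno2 0.92 and for the annexin gene Anxa2 0.68. The V segment Ighv3-1 also passed, at 4.72. Several of these calls were unstable over 26 alternative fits. Tnfrsf4 lost its call in 19, Anxa2 in 17, Syndig1l and Ighv3-1 in 15 each and Eno2 in 13. S100a4 and Asprv1 lost it in 1 each, and H2-M2, Gpr15lg, Adam11 and Rufy4 in 2 each. All sufficient and deficient mice differ in dam and litter, so diet and litter cannot be told apart.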

How the results depend on the processing

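No call of a named gene changed sign under any alternative, and 19 of the 36 genes kept their call in the mean contrast under all alternatives run for them (at most 24). In all 3 nodes, 6 of the 36 passed without the low Gm19220 libraries. The 325 genes of the mean contrast became 84 without the low Gm19220 libraries, and, chosen after seeing the data, 87 within the high and 38 within the low class. They ranged from 172 to 360 without each replicate number of either diet and from 199 to 355 without each colonic library. The lowest values came without replicate 2 and without colonic library 5. The 36 genes became 9 without the low Gm19220 libraries, 20 to 35 without each deficient number (20 without replicate 1) and 27 to 50 without each colonic library. The 843 genes that differed among the 3 nodes became 514 with the 20 libraries alone, 247 without the pancreas-rich libraries and 374 to 858 without each number (374 without replicate 4). The 15 interaction genes became 8 with limma-voom, 38 with DESeq2 and 1 with females only. They became 5 without the low Gm19220 libraries and 9 without the pancreas-rich libraries. The value was smaller on the deficient diet for 8 of the 38 and 3 of the 5. Without each deficient, sufficient or colonic library the interaction genes were 8 to 19, 7 to 11 and 8 to 15. The 705 sufficient calls became 79 with females only and 395 to 721 without each number (395 without sufficient replicate 3). Apart from smaller samples where libraries were left out, the cause was not tested. With the replicate number as a block the counts were 463, 49, 948, 21 and 911 for the mean, all 3 nodes, the differences among nodes, the interaction and the sufficient diet, and 318 of the 325 genes passed. Deviations of same-numbered libraries correlated at 0.102 on average on the deficient diet and 0.189 on the sufficient one. They were over 0.1 in 15 and 21 of 30 pairs. Differently numbered libraries averaged -0.0254 and -0.0472, over 0.1 in 11 and 22 of 120 pairs. Same-numbered libraries were thus more alike, and the main fit did not take this likeness into account. Differences in genes with few counts, such as Hoxc10 and Mcpt1, are limited by depth.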

Other observations

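Interferon-response genes were uneven among the small intestinal nodes of deficient mice. None of 17 tested passed in the mean (median log2 fold change -0.63), 7 were lower in the duodenal than in the colonic node, and 14 differed among the 3 small intestinal nodes. Over all 18387 genes, 158 were lower in the duodenal node and 843 (4.58%) differed among the 3. Summed levels were 786 to 1201 CPM in duodenal libraries. They spread widely in ileal (1061 to 4283 CPM, median 1619) and colonic libraries (831 to 2961 CPM, median 1853). Whether single libraries set these differences was not tested. Of 18 lymphatic endothelial genes, Marco was higher in the mean, while 3 passed in the jejunal and 6 in the ileal node and 8 differed among the 3. Over all genes, 280 were higher in the jejunal and 180 in the ileal node. Other higher genes that did not pass in every node were Erv3, an endogenous retroviral gene (log2 fold change 1.83 ± 0.27, adjusted p = 1.4e-05), Xlr5b (log2 fold change 1.33 ± 0.30, adjusted p = 0.00641) and the axonemal dynein gene Dnah2 (log2 fold change 1.25 ± 0.32, adjusted p = 0.0234). Xlr5b and Dnah2 did not pass without the low Gm19220 class.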
